A study of Homo sapiens with 7 samples.

Results

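The transcripts of 9 complement genes were followed in MDA-MB-231 cells: C3, CFB, CFI, C1R, C1S, SERPING1, CD46, CD55 and CD59. They were listed by symbol with results of this same siRNA comparison in view, so their differences are a description and carry no test. All 9 were found among the 60675 Ensembl gene rows of the count table. MDA-MB-231 is a human triple-negative breast cancer line. It was transfected, using Lipofectamine RNAiMAX, with control siRNA (siCTL, 3 libraries, labelled DEPDC1 WT) or DEPDC1 siRNA (siDEPDC1, 4 libraries, labelled DEPDC1 KD). Fresh medium was given at 8 h, and total RNA was taken from both groups on day 2. All libraries come from a single line, the siRNA sequences were not used here, and nothing in the labels says that replicates were separate cultures, so the tests reflect the spread between libraries, which may be technical. In bulk RNA, fewer cells expressing a gene and less of its RNA per cell cannot be told apart.

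Complement is a cascade of plasma proteases and binding proteins that coats targets with fragments of C3 and can end in a pore in the target membrane. The classical route starts with the C1 complex, whose proteases are C1r and C1s. The alternative route amplifies C3 cleavage through factor B. Host cells hold the cascade in check with soluble inhibitors such as C1 inhibitor and factor I, and with the surface proteins CD46, CD55 and CD59. Tumour cells commonly display these surface regulators, and epithelial cells can make and secrete several of the components themselves.

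Library totals ran from 7690583 to 15360409 counts. The DEPDC1 transcript fell from 118.0 ± 3.20 CPM (counts per 1000000, scaled with TMM factors; SD, n = 3) to 13.3 ± 1.43 CPM (SD, n = 4), a log2 fold change of -3.15 (edgeR adjusted p = 1.2e-26). Over all genes, 5707 of the 16583 that passed the count filter differed at an adjusted p under 0.05, 2975 lower and 2732 higher. VIM and CD44, high in this mesenchymal line, were at 3713 and 402.6 CPM in siCTL, while ESR1 and PGR did not pass the count filter. EGFR, also listed as present, was at 561.8 CPM in siCTL and fell by 0.28 on the log2 scale (edgeR adjusted p = 0.00018). EPCAM and CDH1, also listed as low, passed the filter, at 10.4 and 1.11 CPM in siCTL. CDH1 fell (log2 fold change -1.55, edgeR adjusted p = 0.003), and EPCAM, at 0.17, missed the threshold. Of the 19 leukocyte, hepatocyte, fibroblast and endothelial marker genes examined, 7 passed the filter. Their summed levels per library ran from 8.51 to 8.79 CPM in siCTL and 7.95 to 11.6 in siDEPDC1 for leukocytes, 8.40 to 9.12 and at most 8.02 for hepatocytes, 16.3 to 19.4 and 33.4 to 38.7 for fibroblasts, and 10.7 to 14.4 and 9.88 to 12.7 for endothelium. The fibroblast sum was carried by COL1A1, which rose (log2 fold change 1.22, edgeR adjusted p = 5.4e-13). The endothelial sum was carried by PECAM1, at -0.18 (edgeR adjusted p = 0.23). Of the leukocyte markers, CD14 rose by 0.60 on the log2 scale (edgeR adjusted p = 0.028), and CSF1R, at 0.01, missed the threshold. DCN was at 0 in every library, as were TTR and FGB. The part of these markers in the results below was not tested.

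The 9 genes split into an abundant and a scarce set. Per kilobase of exon, the 3 surface regulators lay far above the 6 secreted proteins. CD55 was at 41.8 ± 1.67 CPM per kb in siCTL (SD, n = 3), CD59 at 36.1 ± 0.305 and CD46 at 31.0 ± 2.42, which placed them at the 93.5th, 92.4th and 90.8th percentile of the 16400 tested genes with a known exon length. C3, the central component, was at 1.22 ± 0.0608 CPM per kb (20.1st percentile), C1R at 0.989 ± 0.135, CFB at 0.482 ± 0.0684 and C1S at 0.144 ± 0.0273. SERPING1, at 0.104 ± 0.0357, and CFI, at 0.0289 ± 0.0216, were lower still and did not pass the count filter. Neighbours in this order differed by more than their summed SDs, except C1S and SERPING1, which did not differ beyond their spread. The surface regulators made up 97.2% to 97.5% of the summed level per length in the siCTL libraries and 97.4% to 97.9% in the siDEPDC1 libraries.

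**Figure D1:**
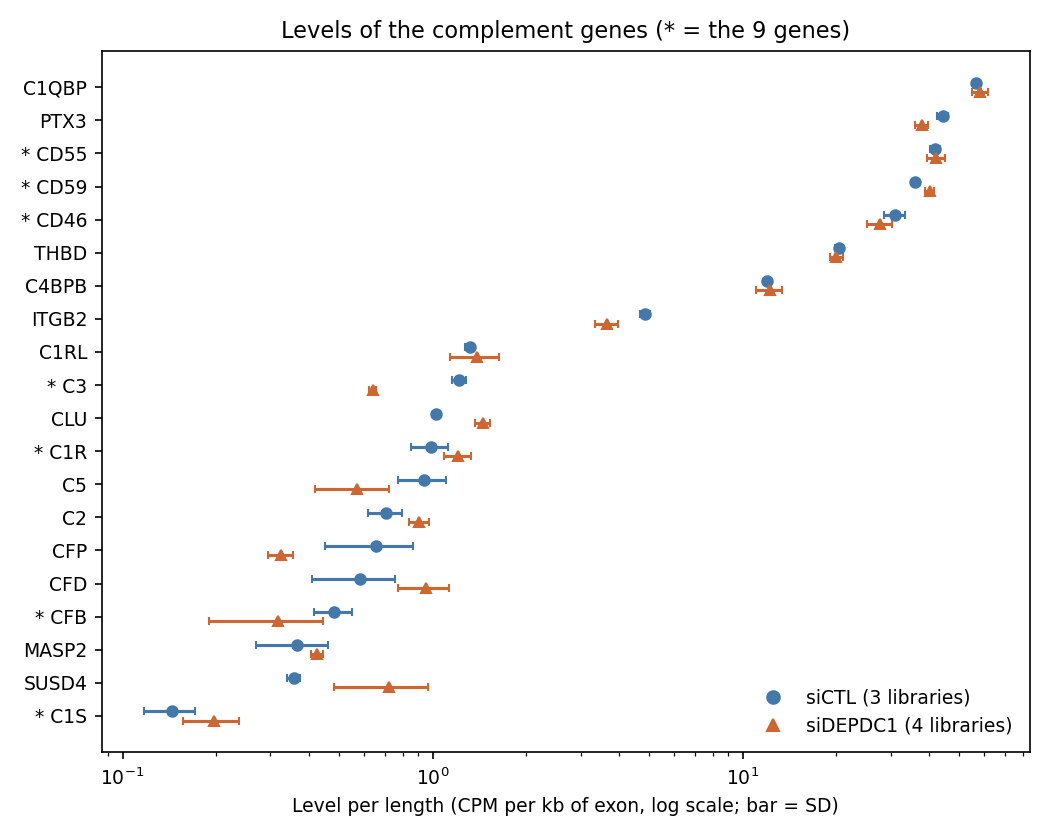
Mean level per kilobase of exon (log axis) of the complement genes shown, all of which passed the count filter, in siCTL (circles, 3 libraries) and siDEPDC1 (triangles, 4 libraries), with SD bars. Starred genes are among the 9 listed ones: CD55, CD59 and CD46 stand between 27.8 and 42.0 CPM per kb in both groups, while C3, C1R, CFB and C1S lie between 0.144 and 1.22.

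C3 and CFB, which together form the amplifying convertase of the alternative route, were the lower ones after DEPDC1 siRNA. C3 was at 9.58, 10.6 and 10.3 CPM in the siCTL libraries and at 5.38, 5.23, 5.21 and 5.52 CPM in the siDEPDC1 libraries. Every siDEPDC1 library was below every siCTL library, and the siDEPDC1 libraries lay close together. These rest on 55, 71, 40 and 62 counts, where counting error is wider than that closeness, so it is not read as precision. The means were 10.1 ± 0.506 (SD, n = 3) and 5.34 ± 0.147 CPM (SD, n = 4), a log2 fold change of -0.92 ± 0.12 (SE), or 1.90-fold lower. CFB, which encodes factor B, was at 2.80, 2.17 and 2.26 CPM in siCTL and at 1.96, 0.810, 2.21 and 1.34 CPM in siDEPDC1. The groups overlapped, since siDEPDC1 replicate 3 was above siCTL replicate 2, and siDEPDC1 replicate 2 was the lowest of all. Its log2 fold change was -0.69 ± 0.26 (SE), and without siDEPDC1 replicate 2 it was -0.42. CFI, the protease that with a cofactor inactivates C3b, gave 1, 4 and 1 counts in siCTL and 1, 7, 0 and 0 in siDEPDC1. Its summed rate was 0.149 CPM in siCTL (95% exact Poisson interval 0.0546 to 0.324) and 0.187 in siDEPDC1 (0.0809 to 0.369), a ratio of 1.26 with an interval of 0.383 to 4.40, so a difference of up to several fold was not detectable at this depth. These intervals cover counting error only.

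**Figure D2:**
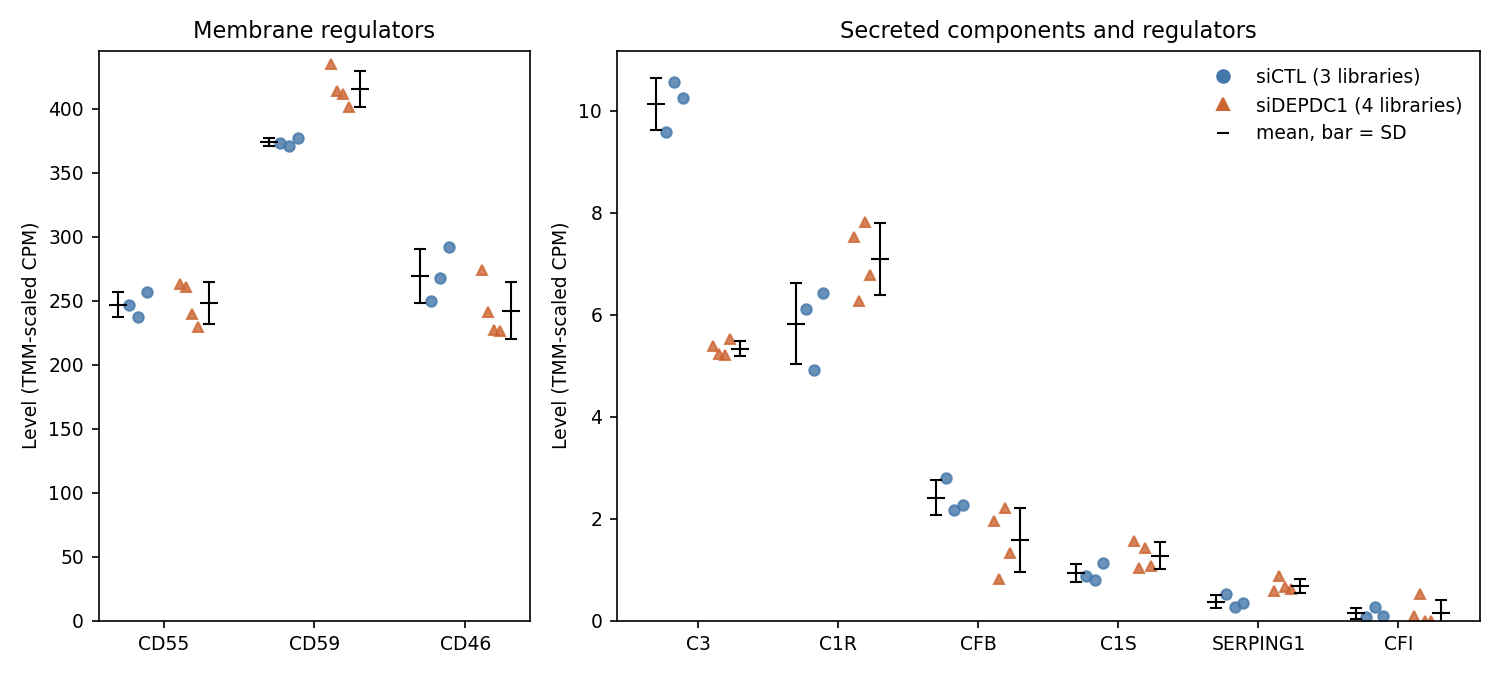
Level in TMM-scaled CPM of each of the 9 genes in every library, siCTL as circles and siDEPDC1 as triangles, with the group mean and SD beside the points. C3 separates the groups, at 9.58 to 10.6 against 5.21 to 5.52 CPM, whereas CFB, C1R, C1S, CFI, CD46 and CD55 overlap between them.

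The C1 proteases and their inhibitor all had higher means in siDEPDC1, with wide errors. C1R, the protease that activates C1s, was at 6.11, 4.92 and 6.43 CPM in siCTL and at 7.53, 6.26, 7.81 and 6.77 CPM in siDEPDC1. Only siDEPDC1 replicate 2 reached into the siCTL range, and the log2 fold change was 0.28 ± 0.14 (SE). C1S, which cleaves C4 and C2, was at 0.884, 0.788 and 1.13 CPM against 1.57, 1.03, 1.43 and 1.07 CPM, with both lower siDEPDC1 libraries inside the siCTL range and a log2 fold change of 0.43 ± 0.31 (SE). The CPM of C1R was 5.69 to 6.92 times that of C1S in the siCTL libraries and 4.81 to 6.33 times in the siDEPDC1 libraries, ranges that overlap. SERPING1, which encodes the C1 inhibitor, gave 7, 4 and 4 counts in siCTL and 6, 12, 5 and 7 in siDEPDC1, or 0.516, 0.263 and 0.348 CPM against 0.587, 0.884, 0.651 and 0.624 CPM. The groups did not overlap in CPM. The ratio of summed rates was 1.89 with an exact interval of 0.985 to 3.78 for counting error, which includes 1.

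Of the surface regulators, CD59 was slightly higher, CD46 slightly lower and CD55 level. CD59, a GPI-anchored protein that blocks assembly of the membrane pore, was at 373.4, 371.0 and 377.2 CPM in siCTL and at 434.5, 414.0, 411.7 and 401.2 CPM in siDEPDC1. Every siDEPDC1 library was above every siCTL library, by a log2 fold change of 0.15 ± 0.053 (SE), or 1.11-fold. CD46, a transmembrane cofactor for the cleavage of C3b by factor I, was at 249.6, 267.5 and 291.6 CPM against 274.0, 240.8, 227.4 and 226.3 CPM. The groups overlapped through siDEPDC1 replicate 1, and the log2 fold change was -0.15 ± 0.063 (SE). CD55, a GPI-anchored protein that speeds the decay of the convertases, was at 246.9, 237.1 and 256.8 CPM against 263.1, 261.0, 239.7 and 229.8 CPM. The siCTL values lay inside the siDEPDC1 range, and the log2 fold change was 0.01 ± 0.057 (SE). Within groups these abundant transcripts varied by 0.845% to 9.19% of the mean (coefficient of variation), against 40.0% for CFB in siDEPDC1.

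In the fit over all genes, 2 of the 7 filtered members were past the threshold as lower (C3 and CFB) and 1 as higher (CD59), where 34.4% of all tested genes were called (17.9% lower, 16.5% higher). In C3 (lower) and CD59 (higher) among these 7 the groups did not overlap, beside 37.3% of all tested genes (19.6% lower, 17.7% higher). The median log2 fold change of the 7 was 0.0099, beside 0.00094 over all tested genes. Since the genes were chosen with this contrast known, and the 7 are those that passed the filter, nothing is read from these counts. CFB was not past the threshold with DESeq2, in the fit of replicates 1 to 3 with a replicate block, or without siDEPDC1 replicate 2 or 4. CD59 was not past it without siCTL replicate 1, 2 or 3 or with no count filter.

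The genes of the complement system outside these 9 were taken as a whole, 56 in number. They were few in this line: 17 had no count in any library, 37 never exceeded 3 counts in a library, and 14 passed the filter. C1QA, C1QB and C1QC, which form the recognition part of C1, had no count, and 5 of the 7 genes of the terminal components never exceeded 3. C4A and C4B, near-identical copies whose reads may be split, gave 23 and 14 counts over the siCTL libraries and 23 and 9 over the siDEPDC1 libraries. Of the 14, 5 fell, 2 rose and 7 missed the threshold of the all-gene edgeR test, so that 7 of 14 were called, beside 34.4% of all tested genes. Their median log2 fold change was 0.031. Earlier results of these data were known when this list was chosen, so nothing is read from the share called.

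Properdin and C5 fell. CFP, which encodes properdin, the stabiliser of the alternative convertase, was at 4.35, 4.40 and 2.35 CPM against 1.96, 1.77, 1.95 and 1.60 CPM. All siDEPDC1 libraries lay below the lowest control, siCTL replicate 3, with a log2 fold change of -1.06 ± 0.22 (SE; edgeR adjusted p = 0.00025). C5, the first component of the pore-forming part of the cascade, was at 5.16, 5.97 and 7.30 CPM against 5.18, 3.54, 3.26 and 2.94 CPM. Here siDEPDC1 replicate 1 stood at the level of siCTL replicate 1, and the log2 fold change was -0.71 ± 0.17 (SE; edgeR adjusted p = 0.0014).

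A receptor subunit and a recognition protein fell as well, and a pair of inhibitors of the cascade rose. ITGB2, the beta chain of the complement receptors CR3 and CR4, fell from 33.0 ± 1.31 (SD, n = 3) to 24.8 ± 2.13 CPM (SD, n = 4; log2 fold change -0.41, edgeR adjusted p = 9.3e-05), while its alpha partners ITGAM and ITGAX never exceeded 3 counts. Exons of ITGB2-AS1 and VEPH1 overlap those of ITGB2 and PTX3 on the opposite strand. Across the table, 8.96% of 357 antisense genes lying almost wholly opposite other genes' exons had no count, with a median of 314 counts. Such an overlap thus did not as a rule empty a gene of counts. Whether ITGB2 and PTX3 lost or gained reads through these overlaps was not tested. PTX3, a soluble pattern-recognition pentraxin that binds C1q, fell from 85.9 ± 3.46 to 73.3 ± 3.47 CPM (log2 fold change -0.23, edgeR adjusted p = 0.0036). CLU, the secreted chaperone clusterin that hinders pore assembly, was at 6.63, 6.83 and 6.95 CPM against 9.68, 9.21, 10.3 and 9.18 CPM (log2 fold change 0.49, edgeR adjusted p = 0.0016). SUSD4, a membrane protein with sushi domains described as a complement inhibitor, rose from 1.62, 1.77 and 1.65 CPM to 2.45, 4.49, 4.30 and 2.41 CPM (log2 fold change 1.01, edgeR adjusted p = 0.00094). Its siDEPDC1 libraries formed 2 pairs, replicates 1 and 4 below replicates 2 and 3. THBD, C1QBP and C4BPB, the abundant others, had log2 fold changes of -0.03, 0.04 and 0.02, short of the threshold. CFD, which encodes factor D, the protease that cleaves factor B, and C2 were at 0.77 and 0.34, with groups that did not overlap but edgeR adjusted p-values of 0.074 and 0.097.

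**Figure D3:**
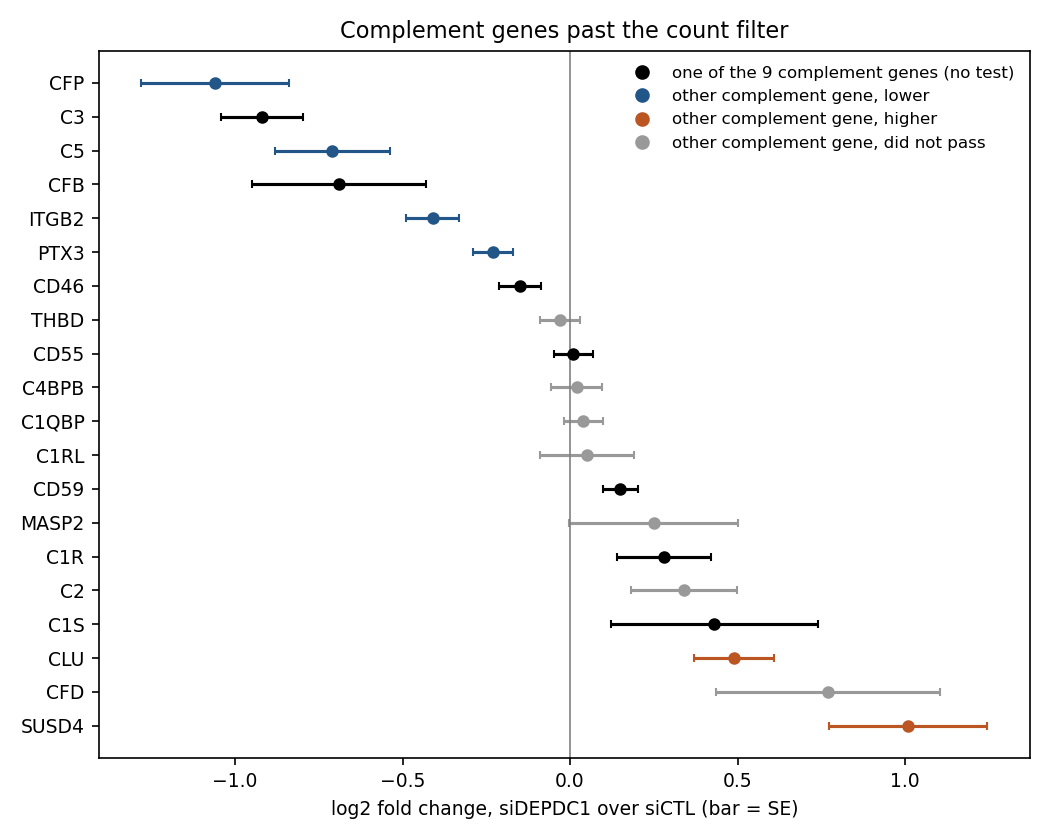
Log2 fold change, siDEPDC1 over siCTL, with SE bars, for the 7 listed genes (black) and 13 other complement genes that passed the filter, coloured by the all-gene test. CFP and C3 lie at -1.06 and -0.92, the 3 surface regulators within 0.15 of 0, and SUSD4 at 1.01.

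Of the 14 nearest tested neighbours of the 9 genes, 3 passed the all-gene test, beside 34.4% of all tested genes. C1R and C1S face each other on chromosome 12 (GRCh38, GENCODE release 29: 7080199 to 7092607, minus strand, and 6988259 to 7071032, plus strand), and C1RL, which overlaps C1R, had a log2 fold change of 0.05 ± 0.14 (SE). CFB (chromosome 6, 31945650 to 31952084) follows C2 in the major histocompatibility region. C2 was at 3.54, 4.46 and 3.74 CPM against 4.60, 4.86, 5.47 and 5.08 CPM, opposite in direction to CFB. NELFE, on the other side of CFB, rose by 0.25 on the log2 scale (edgeR adjusted p = 0.00088). C3 (chromosome 19, 6677704 to 6730562, minus strand) overlaps GPR108, which had a log2 fold change of -0.03 (edgeR adjusted p = 0.74), and TNFSF9, on its other side, rose by 0.47 (edgeR adjusted p = 0.00062). The neighbours of CFI (chromosome 4, 109740694 to 109802179), PLA2G12A and GAR1, were at -0.11 and 0.10, and those of SERPING1 (chromosome 11, 57597387 to 57614853), UBE2L6 and CLP1, at 0.05 and 0.06. CD55, CD46 and C4BPB lie together on chromosome 1 (CD55 at 207321376 to 207386804 and CD46 at 207752057 to 207795513), and MIR29B2CHG, a noncoding gene 6005 bases past CD46, fell by 0.85 on the log2 scale (edgeR adjusted p = 3.4e-05). CD59 (chromosome 11, 33703010 to 33736491) and its neighbour FBXO3, at -0.13, had opposite signs, FBXO3 short of the threshold.

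Shared exons bear on some of these counts. In GENCODE release 29, 54.5% of the exon bases of CFB, 68.0% of those of CFI and 88.6% of those of C1R lie outside the exons of other genes on the same strand, against 100% for C3, SERPING1, CD46 and CD55. ENSG00000244255, a transcription unit that runs from C2 into CFB, and ENSG00000285330, which runs over CFI, had 0 counts in every library. Across the table, 264 of 269 protein-coding genes whose exons all lie inside other genes' exons on the same strand had no count (98.1%), against 18.5% of 11089 that share no exon base. The levels of CFB and CFI may therefore leave out reads from the shared part, and their levels per length, taken over all exon bases, may be too low.

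The pattern of C3 over the 7 libraries was matched by genes of other functions. By the root mean square difference of log2 level relative to the siCTL mean, the closest of 12164 genes with a mean of at least 5 CPM were FYCO1 (0.048), COL4A1 (0.061) and C1orf43 (0.063). Differences this small lie within the counting error of C3, so their order is not resolved. For CD55 they were ALCAM (0.021), ATP2C1 and ZRANB1 (0.025 each). CFI was too scarce for this comparison.

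Several complement genes, C3 and CFB among them, are known to be induced by cytokines of the interleukin-6, interleukin-1, tumour necrosis factor and interferon families. Interleukin-6 type cytokines signal through gp130 (IL6ST) and the STAT3 factor, interferon gamma through STAT factors and IRF1, and interleukin-1 and tumour necrosis factor through NF-kB. RefSeq promoter windows of 300 bases (250 before to 50 after each annotated start, GRCh38.p14) were found for 6 of the 9 genes: C1R, CD46, CD55, CD59, CFB and CFI. They were searched on both strands for the STAT motif GAS (TTCNNNGAA), the interferon-stimulated response element (ISRE: GAAA, any 2 bases, then GAAA) and the NF-kB consensus. The matches are shown because they place the binding motifs of these signals within the windows, with the motif in capitals and 10 bases on each side, on the gene's strand.
CFB, GAS, chr6:31946003-31946011, plus strand: cgcttggatgTTCCGGGAAagtgatgtgg
CFB, NF-kB, chr6:31945983-31945992, plus strand: gcagctcagcGGGGCCCTCCcgcttggatg
CFB, ISRE on the opposite strand, chr6:31945955-31945964, plus strand shown: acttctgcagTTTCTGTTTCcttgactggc
C1R, GAS, chr12:7091971-7091979, minus strand: gccagtcctaTTCCTGGAAggggagggga
CD59, GAS, chr11:33736599-33736607, minus strand: ccacccggccTTCTCAGAAcctgggccag
CFB held all 3 motifs, at 92, 112 and 140 bases before its RefSeq start, and they do not overlap. This start, like the RefSeq start of C1R, lies inside the GENCODE gene span given above, so the printed sites of both genes do too. Of all 27305 genes in the promoter table, 9.38% held the GAS motif, 4.38% the interferon element and 13.3% the NF-kB consensus. A match is a string of letters and not evidence of binding.

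Among 37 genes of these input pathways and of the acute phase, taken as a whole list, 26 passed the filter, of which 13 fell, 4 rose and 9 missed the threshold. That is 65.4% called, beside 34.4% of all tested genes, with a median log2 fold change of -0.20. The list was chosen with earlier results of these data known, so nothing is read from this share. Of the 9 receptor and kinase genes tested, 6 fell and 1 rose, and the largest falls among them were in the gp130 family. The interleukin-6 receptor gene IL6R did not pass the filter, with 13 counts over the siCTL libraries and 5 over the siDEPDC1 libraries. IL6ST, the shared gp130 chain, was at 414.9, 406.9 and 443.1 CPM in siCTL and at 191.0, 165.4, 162.8 and 152.9 CPM in siDEPDC1, a log2 fold change of -1.33 ± 0.061 (SE; edgeR adjusted p = 1.1e-18). LIFR, its partner for leukaemia inhibitory factor, was at 85.1, 80.3 and 99.1 CPM against 49.8, 45.5, 42.7 and 44.0 CPM (log2 fold change -0.95, edgeR adjusted p = 5.2e-13). OSMR, the partner for oncostatin M, was at 161.9, 159.7 and 167.7 CPM against 97.4, 87.7, 88.8 and 87.0 CPM (log2 fold change -0.85, edgeR adjusted p = 3.5e-14). In all 3 the groups were far apart. The tumour necrosis factor receptor gene TNFRSF1A, IFNGR2 and the kinase gene JAK2 also fell, by 0.28, 0.37 and 0.41 on the log2 scale, and IFNGR1 rose by 0.23.

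Of the 4 cytokine genes that passed the filter, 2 rose and none fell, beside 16.5% higher and 17.9% lower among all tested genes. With so few genes, nothing is read from these counts. LIF rose from 89.2 ± 1.41 (SD, n = 3) to 123.2 ± 8.14 CPM (SD, n = 4; log2 fold change 0.47, edgeR adjusted p = 1.5e-07) and IL1B from 13.5 ± 1.35 to 19.6 ± 2.75 CPM (log2 fold change 0.56, edgeR adjusted p = 5.6e-05). IL6 was at 4.26 ± 0.905 and 3.79 ± 0.593 CPM (edgeR adjusted p = 0.64), IL1A had a log2 fold change of 0.39 (edgeR adjusted p = 0.18), and TNF, OSM, IFNG and IFNB1 did not pass the filter. Of the transcription factors, NFKB1 fell by 0.39, NFKB2 by 0.28, RELB by 0.32 and CEBPD by 0.62 on the log2 scale, and CEBPB by 0.22. The CEBPB call was lost in 9 of the alternative fits (highest edgeR or DESeq2 adjusted p = 0.20). The feedback inhibitor SOCS3 rose by 0.26, and STAT3, IRF1 and RELA, at -0.09, -0.10 and -0.05, missed the threshold. The acute phase genes SAA1 and SAA2, which encode serum amyloid A and share sequence with each other, so that their reads may be split, fell. SAA1 was at 17.1, 13.8 and 12.4 CPM against 6.55, 6.19, 6.38 and 6.95 CPM (log2 fold change -1.15, edgeR adjusted p = 1.8e-09), and SAA2 had a log2 fold change of -1.58 (edgeR adjusted p = 1.5e-05). CP, which encodes ceruloplasmin, was at -0.17 and missed the threshold. The hepatocyte marker SERPINA1, itself an acute phase gene, fell by 0.32 on the log2 scale (edgeR adjusted p = 0.047). This call lies near the threshold and was not followed in the alternative fits. APOA1, the other hepatocyte marker past the filter, went the other way, from 0.734 CPM in siCTL to 1.25 in siDEPDC1. Its log2 fold change of 0.71 missed the threshold (edgeR adjusted p = 0.11). ALB never exceeded 3 counts, and TTR and FGB were at 0.

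**Figure D4:**
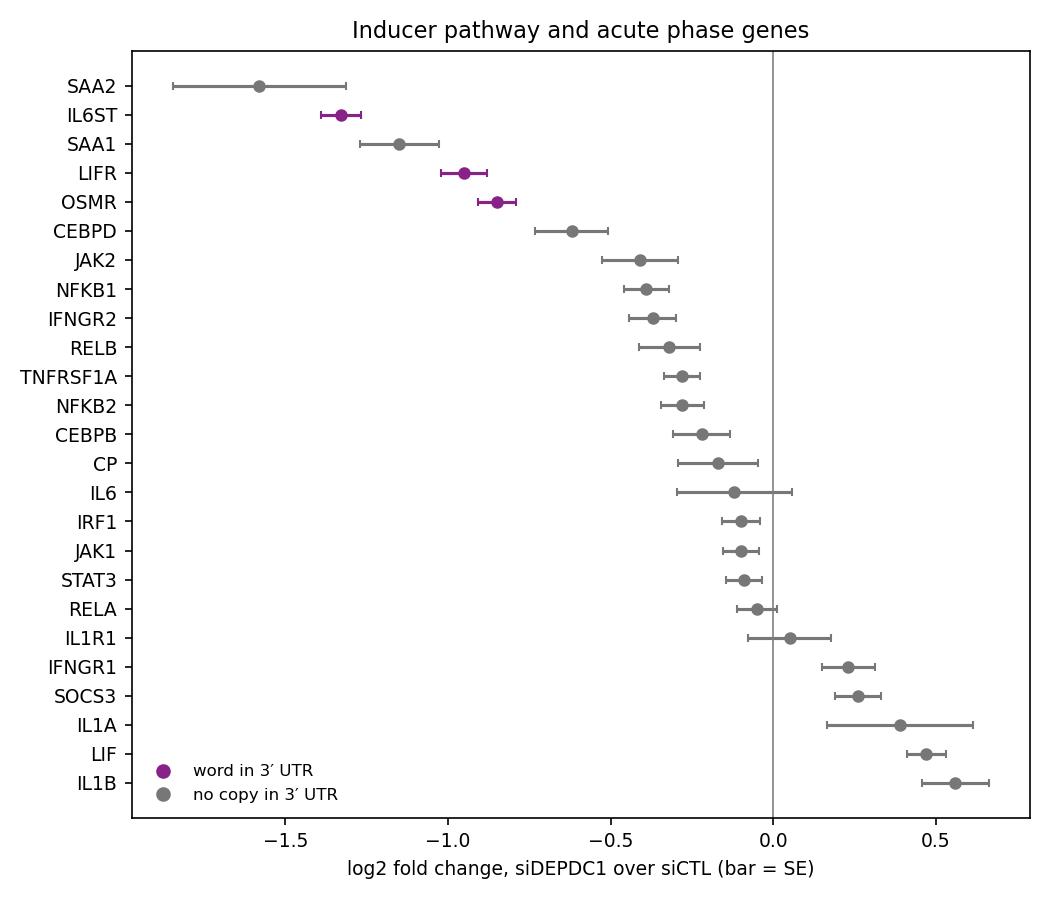
Log2 fold change, siDEPDC1 over siCTL, with SE bars, for 25 genes of the input pathways and acute phase that passed the filter. Purple points carry the word GATAACT in the 3′ UTR: these are IL6ST at -1.33, LIFR at -0.95 and OSMR at -0.85. SAA2 at -1.58 and SAA1 at -1.15 carry no copy. The word was picked out in these same data for large falls, so nothing is read from the colours.

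A 7-base word, GATAACT, had been picked out in an earlier look at these data as frequent in the 3′ UTRs of genes with large falls. It was searched in 1 annotated transcript per gene (GENCODE release 29), and separately in every annotated protein-coding transcript. None of the 9 listed genes carried it in any searched transcript, nor did any of the 14 other complement genes that passed the filter. The word was carried by 7.71% of the 12322 tested genes with a 3′ UTR of at least 50 bases, and the word was chosen on these same libraries, so nothing rests on its share. C3, CFB, CFP and C5 had no copy of the word, and why they were lower was not tested. The 3 gp130 receptor genes, which have the largest falls among the input pathway genes, carried the word once each. Since the word was picked for its frequency in genes with large falls, nothing is read from its presence in them. Their sites are shown as a description, with the word in capitals.
IL6ST, chr5:55937098-55937104, minus strand: aagctttgaatGATAACTacaggttttaag
LIFR, chr5:38475258-38475264, minus strand: tccacttagatGATAACTgaagcatttcct
OSMR, chr5:38934341-38934347, plus strand: gtctgggtcaaGATAACTctcagtcacatt

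CD55 and CD59 are held at the cell surface by a glycosylphosphatidylinositol (GPI) anchor, whose assembly and remodelling genes formed a further whole list of 28. Of the 27 that passed the filter, 11 fell, 3 rose and 13 missed the threshold. That is 51.9% called beside 34.4% of all tested genes (17.9% lower, 16.5% higher), with a median log2 fold change of -0.069. Nothing is read from this share either, since earlier results of these data were known when the list was chosen. PGAP1, which removes an acyl chain from the finished anchor, was at 19.2, 21.7 and 22.9 CPM in siCTL and at 14.6, 11.3, 11.3 and 11.2 CPM in siDEPDC1 (log2 fold change -0.81, edgeR adjusted p = 6.5e-08). In this list PIGG, PIGN and PGAP1 carry the word GATAACT in the 3′ UTR. PIGN was at 0.06 on the log2 scale (edgeR adjusted p = 0.58), short of the threshold. PIGK and PIGU, of the transamidase that attaches the anchor to proteins, fell by 0.42 and 0.35 on the log2 scale, while PIGS, of the same complex, rose by 0.32. The complex's other members PIGT and GPAA1, at 0.06 and -0.02, missed the threshold. PIGA, the catalytic subunit of the first step, fell from 16.6 ± 1.27 to 12.3 ± 1.22 CPM (log2 fold change -0.44, edgeR adjusted p = 0.00078), and PIGL, of the second step, by 0.41 on the log2 scale. PIGO, PIGG and PIGF, of the late ethanolamine steps, fell by 0.33, 0.28 and 0.36, and PIGQ rose by 0.34. PIGC, PIGW, PGAP3 and DPM1, at -0.21, -0.22, -0.30 and 0.22, were past the threshold with edgeR, but each lost the call when single libraries were left out (highest edgeR or DESeq2 adjusted p of 0.10, 0.17, 0.13 and 0.16). The transcripts of the anchored CD55 and CD59 themselves stood at 0.01 and 0.15, as given above.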

How the data were processed

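Per the submitters' processing notes, reads were handled with tools that include FastQC, STAR 2.7.9a and DESeq2 on GRCh38. The sources used here do not name the read counter, annotation release or strand setting. The authors deposited raw counts per Ensembl gene and library, 1 column for each of 7 libraries made with a TruSeq RNA kit and read as pairs of 100 bases. Positions, exon lengths and 3′ UTRs came from GENCODE release 29 (GRCh38), which holds 58444 of the 60675 identifiers and may differ from the release behind the counts. Counts as deposited were filtered with filterByExpr (16583 genes left, 35823 with any count), scaled with TMM factors and tested with edgeR 4.0.16 in R 4.3.3 (glmQLFit with robust estimation, glmQLFTest, two-sided, group as the only term), with Benjamini-Hochberg adjustment over all tested genes at 0.05. The fit was tested on simulated counts for this comparison (16328 genes): of 100 genes changed 1.5-fold, 92% were recovered, and of 100 changed 2-fold, 100%. The changed genes were drawn from those with a mean above 5 CPM, so these rates do not cover scarcer genes such as CFB, C1S and CFP.

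The 9 genes and all lists were chosen with earlier results of these data known. The naming rule took all 9, then every list gene that passed the all-gene test and reached a mean of 1 CPM in a group, the nearest tested neighbours, and the 3 genes most like C3, CFI and CD55. Genes named beside these, such as CP or PIGT, were chosen after their values were seen. Alternatives were DESeq2 1.42.0 as a test and as size factors, limma-voom (limma 3.58.1), library size alone, other count filters, a replicate block, and each library left out in turn. No pairing by replicate number was seen in the deviations of the libraries, and no replicate pair agreed within counting noise (chi-square per degree of freedom 1.68 to 4.68). Some list genes are counted in the totals but not reported by name here.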

Additional observations from a re-analysis of the deposited data

Results flagged for a closer look

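In each of 46 sets of 4 siDEPDC1 values (the 7 filtered members, the named genes and DEPDC1), a library far from the other 3 was looked for by its gap to the nearest value as a share of the range, with Dixon's 95% critical value. PGAP1 in siDEPDC1 replicate 1, at 14.6 CPM against 11.2 to 11.3 CPM in the other 3, was the single case, with a gap of 0.969 of the range. Chance gives about 1 in 20 such sets.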

How the results depend on the processing

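The count of the 9 genes called lower (2) was 1 with DESeq2, 1 with at least 50 counts required in every library of a group, 1 with a replicate block over 6 libraries and 1 in the same 6 libraries without it. The last of these is the same fit as the one without siDEPDC1 replicate 4. The count was 3 with no count filter, and it ran from 1 to 3 when single libraries were left out. CFB was lost without siDEPDC1 replicate 2 or 4. The count called higher (1, CD59) was 0 with no count filter and ran from 0 to 1 over the libraries left out, at 0 without siCTL replicate 1, 2 or 3. Of the other complement genes, 1 in place of 2 was called higher with the 50-count filter, and 4 in place of 5 were called lower. Without siCTL replicate 3, 3 were called higher. In the remaining alternatives 2 were called higher, and outside the 50-count filter 5 were called lower. The correlations of deviations between same-numbered libraries were -0.116, -0.0423 and 0.00298, inside the range of -0.178 to 0.112 between differently numbered ones. No pairing was seen, but this does not settle whether same-numbered libraries share a day or culture, which the labels do not say. With the block, 2437 genes were called lower and 2292 higher over all genes, against 2767 and 2627 in the same libraries without it. All fits ran from 2359 to 3159 lower and from 2132 to 3247 higher.

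Of 567 values of the 38 named list genes under alternatives, 42 lost the call and none reversed. The losses were in 10 genes, CEBPB, DPM1, IFNGR1, JAK2, PGAP3, PIGC, PIGF, PIGW, RELB and SOCS3. Leaving out siCTL replicate 1 lost RELB (edgeR adjusted p = 0.16) and, like siDEPDC1 replicate 2, IFNGR1. Leaving out siCTL replicate 3 lost PIGF and SOCS3, and the block lost JAK2 (edgeR adjusted p = 0.052). Why calls were lost was not tested. Depth limits CFI and SERPING1, with 6 and 15 counts over the siCTL libraries, and widens the errors of CFB and C1S.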
